A study of Mus musculus with 12 samples.

Results

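Lysosomal enzymes and membrane proteins were examined here as a set of 39 listed genes of the mouse pro-B cell line FL5.12 carrying MycER. They encode the acid hydrolases of the lysosome, the proteins of its limiting membrane and 2 soluble proteins of its lumen. Members entered the comparisons if their RPKM (reads on a gene per its length and per the library's total) was at least 1 in at least 3 of the 12 libraries, and 34 of the 39 did so, among 9745 genes tested of 21671 in the table. FL5.12 is an established, IL-3-dependent line of BALB/c origin, described in its labels as prolymphocytic. All 4 groups carried a retroviral MycER, a fusion of MYC with a hormone-binding domain of the estrogen receptor that is expressed throughout and is activated by 4-hydroxytamoxifen (OHT), so that untreated cells held inactive MycER. The cells were a drug-selected pool, and no parental or vehicle-treated cells were among the libraries.

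The groups were untreated cells, cells given 100 nM OHT for 72 h in all (OHT), cells given 135 nM IACS-010759, an inhibitor of complex I of the electron transport chain, for 24 h (IACS), and cells that received both, the IACS-010759 being added for the last 24 h after an OHT priming of 48 h (OHT_IACS). Each group had 3 libraries of total RNA, described in the methods as biological replicates. The comparisons ask how lysosomal transcripts differ after MycER activation, with and without complex I inhibition, and after complex I inhibition, in nonprimed and in primed cells.

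Lysosomes are acidic organelles in which many hydrolases, most of them delivered with a mannose 6-phosphate tag, break down proteins, glycans, sulfated sugars and lipids. The limiting membrane carries glycoproteins such as LAMP1 and LAMP2, the proton pump, channels such as the calcium channel TRPML1, and transporters that export the products. Many lysosomal genes are bound by the transcription factors TFEB, TFE3 and MITF at a short promoter sequence that contains the E-box CACGTG, and MYC with its partner MAX also binds CACGTG.

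That sequence was searched in the RefSeq promoters of the members, as a description of what they share. The table of RefSeq promoters (assembly GRCm38.p6, 250 bases before to 50 after each start) held 35 of the 39 members. Ctsh, Asah1, Ctsb and Npc1 were not among them. CACGTG, which reads the same on both strands, occurred in 12 of the 35 (34.3%) and in 8.09% of the 27025 genes of the table. Its longer form TCACGTG, on either strand, occurred in 11 (31.4%) against 4.29%, and the palindrome TCACGTGA, which contains both, in 5 (14.3%) against 1.12%. The 5 were Cln3, Ctsa, Ctsd, Gla and Mcoln1. The 27025 genes were not narrowed to those expressed in these cells, whereas most members were expressed. The share among expressed genes was not worked out. A match is a description of the letters only, not of binding. Stretches of the RefSeq promoters of 5 members that changed in at least 1 comparison are shown because each carries the motif before the RefSeq start site. They are written 5′ to 3′ on the strand of the gene, with CACGTG in capitals. Glb1 lies at chr9:114400990-114401075 (plus strand, motif starting 48 bases before the RefSeq start site), Arsa at chr15:89477425-89477480 (minus strand, 16 bases before), Mcoln1 at chr8:3500408-3500480 (plus strand, 71 and 45 bases before), Gaa at chr11:119267783-119267868 (plus strand, 140 bases before) and Naglu at chr11:101069981-101070035 (plus strand, 73 bases before). In the GENCODE annotation the genes of Mcoln1 and Naglu start earlier than in RefSeq, so that the second Mcoln1 motif and the Naglu motif begin 17 and 9 bases inside the annotated gene, and both stretches reach 24 bases into it.
Glb1: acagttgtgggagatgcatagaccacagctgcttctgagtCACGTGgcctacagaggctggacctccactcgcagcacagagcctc
Arsa: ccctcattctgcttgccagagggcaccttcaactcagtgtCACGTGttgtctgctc
Mcoln1: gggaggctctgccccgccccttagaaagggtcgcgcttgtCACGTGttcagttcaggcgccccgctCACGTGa
Gaa: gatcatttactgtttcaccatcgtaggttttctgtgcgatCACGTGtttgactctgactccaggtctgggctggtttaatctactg
Naglu: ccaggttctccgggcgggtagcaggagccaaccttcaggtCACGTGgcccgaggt

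The libraries held 4199265 to 5762338 reads on genes, worked out from the steps of the RPKM. The totals by which RPKM had been divided were lowest in OHT replicates 1 and 3, at 0.776 and 0.805 of that of untreated replicate 1. Within conditions, the slope of log2 reads on log2 library total had a median of 1.38 in genes under 0.1 reads per base. In genes of 0.5 to 1 reads per base it was 0.59. RPKM of highly covered genes thus tended to be higher, and of thinly covered genes lower, in libraries of low total. The markers of the labelled cell type were largely missing: of the B-lineage genes on the marker list, Pax5, Blnk, Rag1, Dntt and Il7r were at 0 in every library, and Cd79a and Cd79b were the only ones that could be tested. Genes of the IL-3 receptor were expressed, with a sum of 69.1 to 82.3 RPKM. Of 11 myeloid genes, 7 could be tested, and their list summed to 76.9 to 79.2 RPKM in untreated cells, 49.4 to 56.4 with OHT, 66.9 to 80.5 with IACS and 50.1 to 52.8 with OHT_IACS.

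In untreated cells the lysosomal genes were expressed at about the level of other genes. Their median was 10.1 RPKM, beside 9.09 over all genes tested, and 8 members exceeded 20 RPKM. The aspartic protease gene Ctsd stood highest, at 49.2 ± 0.822 RPKM (mean ± SD, n = 3, as for all values of this form), followed by the cathepsin gene Ctsz at 47.0 ± 2.36 and the membrane glycoprotein gene Lamp1 at 46.6 ± 0.962. These 3 overlapped from each to the next. Below them came Psap, the precursor of the saposins that help sphingolipid hydrolases, the tetraspanin gene Cd63, Ctsc, Gusb and Npc2. Idua, the iduronidase gene of heparan and dermatan sulfate breakdown, was the lowest member that could be tested, at 1.24 RPKM. Of the 33 pairs of neighbours in this order, 17 overlapped between their libraries, so that the order is firm only over longer distances.

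The 5 members that could not be tested held few or no reads. Galc, the galactosylceramidase gene, was at 0 reads in every library, which allows up to 3 reads in each. Ctsh and Ctsl, both encoding cysteine cathepsins, had at most 1 read in any library. The heparan sulfatase gene Sgsh had 1 to 10 reads, and Ctss, a cathepsin gene of antigen-presenting cells, had 3 to 12. No fold is given for these.

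**Figure D1:**
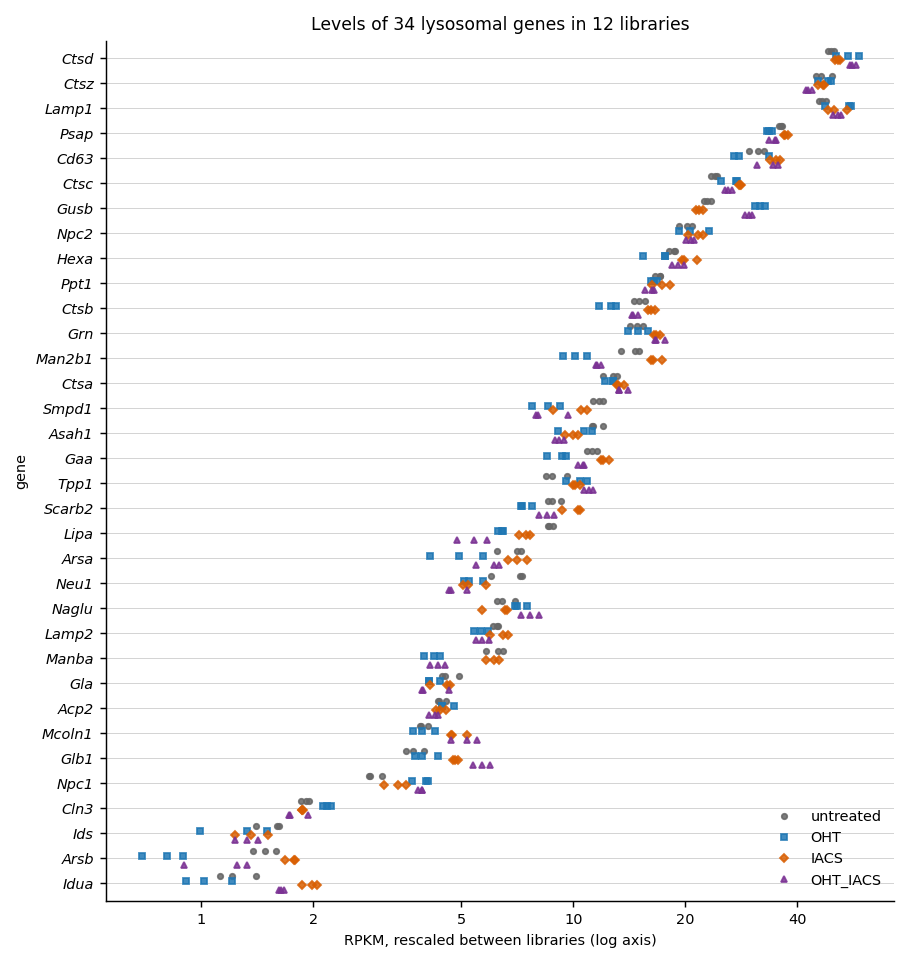
RPKM (rescaled between libraries, log axis) of the 34 lysosomal genes that could be tested, in each of 12 libraries, ordered by their mean in untreated cells and with 1 point per library. Levels run from about 1 RPKM for Idua to about 50 for Ctsd, and the 4 conditions lie far closer together than the genes do.

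Conditions were compared with limma on log2(RPKM + 0.1), a scale that understates the changes of low genes, and a call is an adjusted p (Benjamini-Hochberg, two-sided, over all genes tested) under 0.05. With OHT, 5 of the 34 lysosomal genes rose and 10 fell in otherwise untreated cells, beside 18.2% of all genes tested that rose and 18.2% that fell. The members' share was thus 14.7% up and 29.4% down. Their median change was -0.094 on the log2 scale, beside 0.013 over all genes. Under IACS-010759 the same step (OHT_IACS against IACS) gave 3 rises and 7 falls, beside 12.3% and 14.2% of all genes, and a median of -0.096, beside -0.003. Summed over the set, the 34 members stood at 489.0 ± 1.38 RPKM in untreated cells and 487.0 ± 15.5 with OHT.

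IACS-010759 was followed mostly by higher levels. In nonprimed cells 6 members rose and 2 fell, beside 8.15% of all genes that rose and 7.74% that fell, with a median of 0.07 beside 0.004. In primed cells 10 rose and 1 fell, beside 11.9% and 11.8%, with a median of 0.044 beside -0.014. The members' share of rises was 17.6% and 29.4% in turn. The 34 genes summed to 513.0 ± 6.06 RPKM with IACS and 498.0 ± 4.07 with OHT_IACS. In bulk RNA, fewer cells that express a gene and less RNA per cell cannot be told apart. No member was called in the interaction, the difference between the responses of primed and nonprimed cells, where limma called 0.144% of all genes at an adjusted p under 0.05. At an unadjusted p under 0.05 there was 1 member, Ctsc (2.94%), beside 1240 of all genes (12.7%). The 95% interval of a member's interaction, which is not adjusted, reached a median of 0.19 to either side on the log2 scale. A call needed more than that. Ctsc, at -0.26, had an unadjusted p of 0.0016 and an adjusted p of 0.15 in limma. Differences somewhat larger than 0.19 could thus go uncalled as well as smaller ones.

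**Figure D2:**
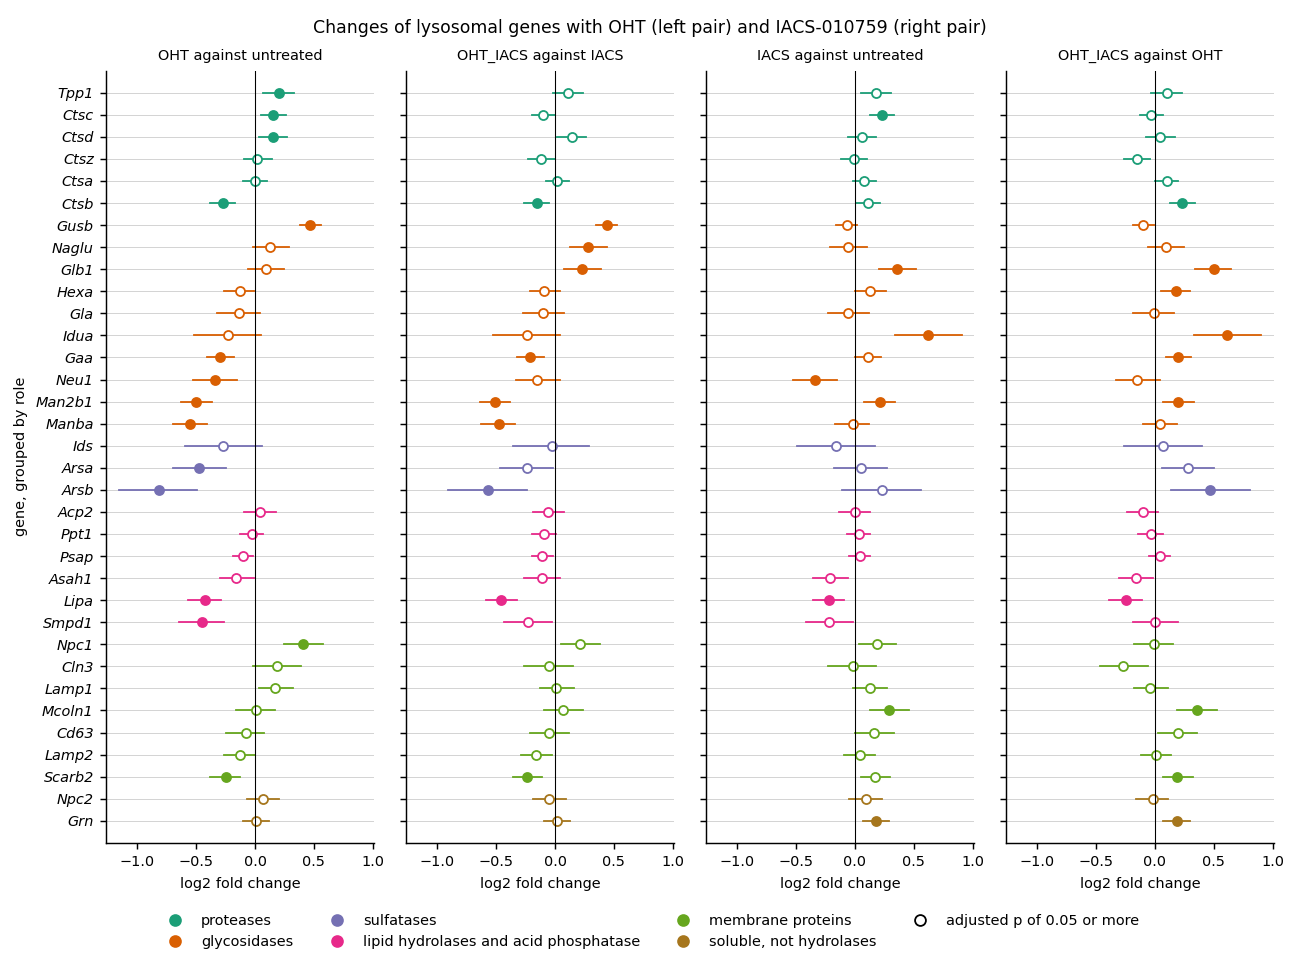
Log2 fold changes (points) with 95% intervals (lines) of 34 lysosomal genes in 4 comparisons, grouped by role and ordered within a role by the change with OHT, where filled points passed an adjusted p of 0.05 in limma. Glycosidases and sulfatases hold the largest falls with OHT, and Idua, Glb1 and Mcoln1 lie to the right in both IACS comparisons.

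Among the glycosidases, the enzymes that strip sugars from glycans, 10 of 11 could be tested, and 1 rose and 4 fell with OHT. These are 10% and 40%, beside 18.2% and 18.2% of all genes. The rise was Gusb, encoding beta-glucuronidase (chr5:129989011-130003049 on GRCm38). Its level was 22.4, 23.5 and 22.9 RPKM in untreated libraries and 32.8, 30.9 and 31.8 with OHT. With IACS it was 22.3, 21.4 and 21.8, and with OHT_IACS 28.9, 29.7 and 30.3. Every library with OHT thus lay above every library without it. The log2 change was 0.47 ± 0.04 (SE) without IACS-010759 (1.39-fold, adjusted p = 3.1e-06 in limma) and 0.44 ± 0.04 with it (1.36-fold, adjusted p = 8.5e-06), the smallest adjusted p-values among the members in both comparisons. IACS-010759 itself left Gusb at -0.07 (95% interval -0.16 to 0.02) in nonprimed cells.

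The mannosidase genes went the other way. Man2b1, the lysosomal alpha-mannosidase gene (chr8:85083270-85098282), was at 13.4, 15 and 14.7 RPKM in untreated libraries, 9.36, 10.9 and 10.1 with OHT, 17.3, 16.2 and 16.4 with IACS and 11.6, 11.9 and 11.5 with OHT_IACS. The 4 groups did not overlap, and IACS stood highest and OHT lowest. Man2b1 fell by 0.5 on the log2 scale with OHT (0.707-fold, limma adjusted p = 3.1e-05) and by 0.51 under IACS-010759 (adjusted p = 3.8e-05). It rose by 0.21 with IACS-010759 in nonprimed cells (adjusted p = 0.028) and by 0.2 in primed cells (adjusted p = 0.026), calls that were lost in 4 and 7 of 22 alternative settings of the processing. Manba, the beta-mannosidase gene (chr3:135485611-135571404), was at 6.26, 5.81 and 6.49 RPKM in untreated libraries and 6.3, 6.13 and 5.82 with IACS, against 4.22, 4.38 and 3.97 with OHT and 4.34, 4.51 and 4.11 with OHT_IACS. Libraries fell into a high and a low set by OHT alone. Its falls were 0.682-fold (-0.55 ± 0.07, limma adjusted p = 3.7e-05) and, under IACS-010759, 0.715-fold (-0.48 ± 0.07, adjusted p = 0.00017).

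Glb1, encoding beta-galactosidase (chr9:114401076-114474898), was at 3.55, 3.71 and 3.96 RPKM in untreated libraries, 3.76, 3.91 and 4.32 with OHT, 4.82, 4.74 and 4.91 with IACS and 5.38, 5.99 and 5.68 with OHT_IACS. Untreated and OHT libraries overlapped, IACS lay above both, and OHT_IACS was highest. The rise with IACS-010759 was 1.28-fold in nonprimed (0.36 ± 0.07, limma adjusted p = 0.005) and 1.41-fold in primed cells (0.5 ± 0.07, adjusted p = 0.00043). OHT_IACS also exceeded IACS, by 0.23 (adjusted p = 0.031, lost in 5 of 22 alternatives). The interaction was 0.14 (95% interval -0.08 to 0.36), so that a difference between the IACS-010759 responses was not shown.

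Idua (chr5:108660331-108684557) had the largest rise with IACS-010759 among the members, from 1.12, 1.4 and 1.21 RPKM in untreated libraries to 2.05, 1.86 and 1.98. In primed cells it went from 0.91, 1.02 and 1.21 RPKM with OHT to 1.64, 1.67 and 1.62 with OHT_IACS. The libraries with IACS-010759 all lay above those without, on 31 to 93 reads each. The rises were 1.54-fold (0.62 ± 0.13, limma adjusted p = 0.0065) and 1.53-fold (0.61 ± 0.13, adjusted p = 0.0051).

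Neu1, the sialidase gene, was at 7.2, 6.0 and 7.28 RPKM in untreated libraries, 5.73, 5.1 and 5.23 with OHT, 5.21, 5.82 and 5.05 with IACS and 4.62, 5.19 and 4.68 with OHT_IACS. Untreated libraries were highest, and the other groups overlapped among themselves. Neu1 fell by 0.34 with OHT (limma adjusted p = 0.0079) and by 0.34 with IACS-010759 (adjusted p = 0.017, lost in 4 of 22 alternatives), and in cells already given the other agent it changed by -0.15 in both comparisons, which did not pass the test. Both falls share the untreated libraries, which do not enter the changes of -0.15. Naglu, encoding the alpha-N-acetylglucosaminidase of heparan sulfate breakdown, was at 6.22, 6.42 and 6.98 RPKM in untreated libraries, 6.96, 7.5 and 7.08 with OHT, 6.56, 6.63 and 5.69 with IACS and 7.64, 8.08 and 7.25 with OHT_IACS. OHT_IACS lay above IACS without overlap, by 0.28 (limma adjusted p = 0.011), and the change with OHT alone was 0.13 (95% interval -0.02 to 0.29). The acid alpha-glucosidase gene Gaa, which serves glycogen breakdown, fell with OHT in both comparisons (-0.3 and -0.21) and rose with IACS-010759 in primed cells (0.2, lost in 3 of 22 alternatives). The hexosaminidase alpha subunit gene Hexa rose by 0.18 in primed cells (adjusted p = 0.045), a call lost in 12 of 22 alternatives. Gla was called in no comparison.

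The sulfatases had the largest fall. Arsb, which encodes arylsulfatase B (chr13:93771630-93943016), was at 1.38, 1.48 and 1.59 RPKM in untreated libraries, 0.694, 0.808 and 0.895 with OHT, 1.68, 1.79 and 1.78 with IACS and 1.25, 0.899 and 1.33 with OHT_IACS. No 2 groups overlapped, though the lowest OHT_IACS library all but met the highest OHT library. Arsb fell to 0.566-fold with OHT (-0.82 ± 0.16, limma adjusted p = 0.0012) and to 0.672-fold under IACS-010759 (-0.57 ± 0.16, adjusted p = 0.015), the latter call being lost without IACS replicate 2 or OHT_IACS replicate 2. These values rest on 42 to 151 reads per library. The rise in primed cells with IACS-010759 (0.47, adjusted p = 0.042) was lost in 14 of the 21 alternatives that gave it a value.

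Arsa, encoding the sulfatide-degrading arylsulfatase A, was at 6.24, 7.24 and 7.07 RPKM in untreated libraries and at 4.11, 5.72 and 4.94 with OHT. Its IACS libraries held 7.49, 6.69 and 7.04, and its OHT_IACS libraries 6.11, 5.48 and 6.31. OHT libraries lay below untreated ones, the lowest being OHT replicate 1, which also had the lowest library total. The fall was 0.718-fold (-0.48 ± 0.1, limma adjusted p = 0.0029). With a covariate for log2 library total, an alternative chosen after seeing the data, it was -0.3 with an adjusted p of 0.081 in limma, and the calls of Ctsc, Ctsd and Scarb2 with OHT were lost as well, whereas Naglu passed (0.25, adjusted p = 0.04). Ids, the iduronate sulfatase gene, was called in no comparison.

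**Figure D3:**
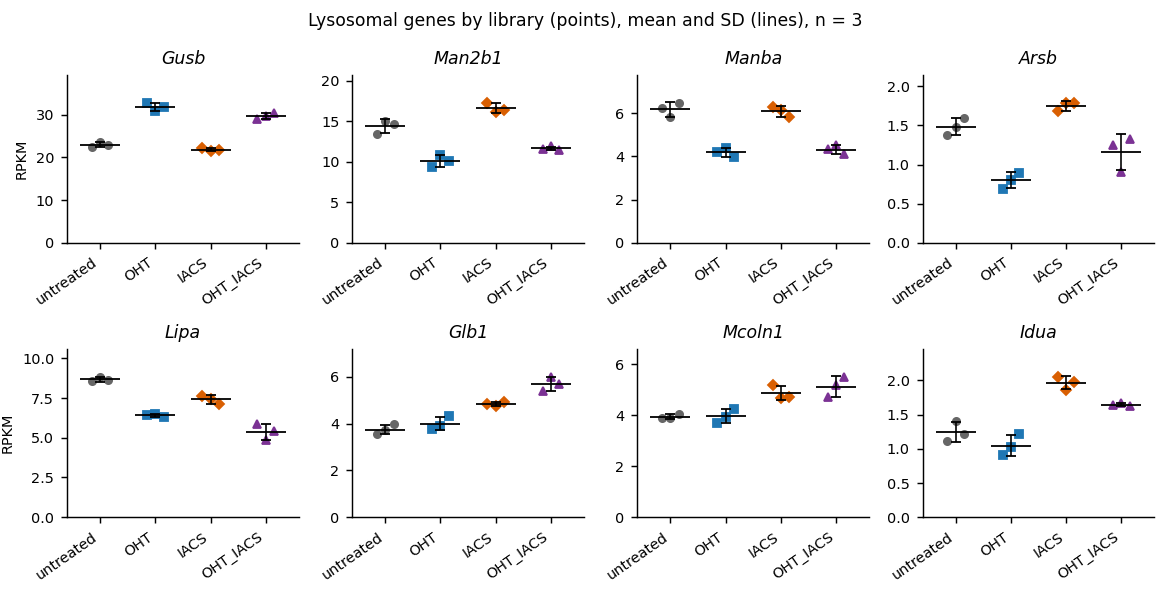
RPKM of 8 lysosomal genes in each library of the 4 conditions (points), with the mean and SD of 3 libraries (lines) and axes from 0. Gusb is higher, and Man2b1, Manba, Arsb and Lipa lower, with OHT than without, whether or not IACS-010759 was present, and Glb1, Mcoln1 and Idua are higher in both groups given IACS-010759.

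Of the 5 lipid hydrolase and saposin genes and the acid phosphatase gene Acp2, only Lipa and Smpd1 were called, and both fell. With OHT 33.3% of these genes fell, beside 18.2% of all genes. In the other comparisons 16.7% fell each time, beside 7.74% to 14.2% of all genes. Lipa, the gene of lysosomal acid lipase, which hydrolyses cholesteryl esters and triglycerides (chr19:34492318-34527474), was at 8.56, 8.83 and 8.61 RPKM in untreated libraries, 6.43, 6.49 and 6.29 with OHT, 7.65, 7.45 and 7.13 with IACS and 5.88, 4.88 and 5.4 with OHT_IACS. The groups did not overlap, and either agent was followed by a lower level. Lipa was the only member that fell in all 4 comparisons. With OHT the changes were -0.43 (0.742-fold, limma adjusted p = 0.00019) and, under IACS-010759, -0.46 (0.729-fold, adjusted p = 0.00018). With IACS-010759 they were -0.22 (adjusted p = 0.03) in nonprimed and -0.25 (adjusted p = 0.014) in primed cells, and these calls were lost in 8 and 2 of 22 alternatives. Smpd1, the acid sphingomyelinase gene, fell with OHT from 11.3, 12 and 11.7 RPKM to 9.23, 8.57 and 7.75, a change of -0.45 (adjusted p = 0.0018), and was at -0.23 (95% interval -0.43 to -0.03, adjusted p = 0.079) in OHT_IACS against IACS. Asah1, Ppt1, Psap and Acp2 did not pass the test in any comparison. The 6 genes together summed to 89.3 ± 0.739 RPKM in untreated cells, 80.0 ± 1.09 with OHT, 86.2 ± 2.04 with IACS and 78.0 ± 1.55 with OHT_IACS.

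The proteases were the role with the most rises with OHT, 3 of 6 genes tested, beside 18.2% of all genes. All 3 were small, and each was lost in at least 5 of 22 alternatives. Ctsc, encoding the dipeptidyl peptidase that activates granule serine proteases, was at 24.1, 24.3 and 23.4 RPKM in untreated libraries, 27.4, 25.0 and 27.6 with OHT, 28.1, 28.3 and 27.9 with IACS and 26.0, 25.6 and 26.8 with OHT_IACS. Each treated group lay above the untreated one, and OHT_IACS overlapped OHT. It rose by 0.15 with OHT (limma adjusted p = 0.02, lost in 5 of 22 alternatives) and by 0.23 with IACS-010759 (adjusted p = 0.0048). Both rises share the untreated libraries. In OHT_IACS against IACS Ctsc was at -0.1, not called. In primed cells IACS-010759 left it at -0.03 (95% interval -0.13 to 0.07), and its interaction of -0.26 had an adjusted p of 0.15 in limma.

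Tpp1, the tripeptidyl peptidase gene, was at 8.46, 9.65 and 8.78 RPKM in untreated libraries and 9.54, 10.9 and 10.4 with OHT, which overlapped slightly. The rise was 1.15-fold (0.2 ± 0.06, limma adjusted p = 0.022) and was lost in 5 of 22 alternatives, of which 4 left out a single OHT or untreated library. The level of Ctsd was 50.1, 49.2 and 48.4 RPKM in untreated libraries, 58.5, 50.9 and 54.9 with OHT, 52.2, 50.4 and 51.4 with IACS and 56.1, 55.4 and 57.7 with OHT_IACS. Every library given OHT lay above those of the untreated group, OHT replicate 2 by the least. Its rise of 0.15 had an adjusted p of 0.049 in limma, and the call was lost in 17 of 22 alternatives. Ctsb, whose product is an abundant cysteine cathepsin, fell with OHT (-0.27 and -0.15, adjusted p = 0.00072 and 0.033 in limma, the second lost in 5 of 22 alternatives) and rose with IACS-010759 in primed cells (0.23, adjusted p = 0.0045). Ctsz and the protective protein gene Ctsa were called in no comparison.

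Of the 7 membrane protein genes, Npc1 and Scarb2 changed with OHT and Mcoln1 and Scarb2 with IACS-010759. With OHT 14.3% rose and 14.3% fell, beside 18.2% and 18.2% of all genes. With IACS-010759 14.3% rose in nonprimed and 28.6% in primed cells, beside 8.15% and 11.9%. Npc1, the transporter that takes cholesterol out of the lysosome, was at 2.83, 3.07 and 2.85 RPKM in untreated libraries, 3.68, 4.06 and 4.01 with OHT, 3.55, 3.1 and 3.38 with IACS and 3.83, 3.91 and 3.91 with OHT_IACS. Untreated libraries were the lowest, with no overlap with any other group. The rise with OHT was 1.33-fold (0.41 ± 0.08, limma adjusted p = 0.00096), and under IACS-010759 the difference was 0.21 (95% interval 0.05 to 0.38, adjusted p = 0.054). The gene of NPC2, the soluble partner that hands cholesterol to NPC1, was called in no comparison.

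Mcoln1, encoding the calcium channel TRPML1 (chr8:3500457-3515232), was at 3.87, 3.89 and 4.06 RPKM in untreated libraries, 3.71, 3.92 and 4.26 with OHT, 5.17, 4.69 and 4.71 with IACS and 4.7, 5.17 and 5.5 with OHT_IACS. Groups split by IACS-010759 without overlap, and OHT made no visible step on either side. The rises were 1.23-fold in nonprimed (0.29 ± 0.08, limma adjusted p = 0.02, lost in 4 of 22 alternatives) and 1.28-fold in primed cells (0.36 ± 0.08, adjusted p = 0.0052). With OHT alone the change was 0.01 (95% interval -0.16 to 0.17). Scarb2, the receptor that carries glucocerebrosidase to the lysosome, fell with OHT in both comparisons (-0.25 and -0.24) and rose in primed cells with IACS-010759 (0.19, adjusted p = 0.032 in limma, lost in 7 of 22 alternatives).

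The most abundant membrane proteins were called nowhere. Lamp1 was at 47.7, 46.5 and 45.8 RPKM in untreated libraries, 55.8, 47.4 and 55.0 with OHT, 50.2, 48.4 and 54.4 with IACS and 52.6, 50.0 and 51.5 with OHT_IACS. Its difference with OHT was 0.17 (95% interval 0.03 to 0.32, limma adjusted p = 0.058), with OHT replicate 2 inside the untreated range. The other OHT libraries had the lowest library totals. Cd63 was at 29.6, 31.3 and 32.6 RPKM in untreated libraries, 33.5, 27.1 and 27.9 with OHT, 35.9, 33.8 and 35.1 with IACS and 31.2, 35.6 and 34.5 with OHT_IACS. Only the IACS group lay wholly above the untreated one, by 0.16 (adjusted p = 0.17). Lamp2 and the neuronal ceroid lipofuscinosis gene Cln3 were not called either.

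Grn, the gene of progranulin, was at 14.8, 14.2 and 15.4 RPKM in untreated libraries, 15.9, 14.9 and 14.0 with OHT, 17.1, 16.7 and 16.5 with IACS and 16.7, 17.6 and 16.6 with OHT_IACS. Libraries with IACS-010759 lay above all others. The rises were small, 0.18 (limma adjusted p = 0.032) in nonprimed and 0.19 (adjusted p = 0.02) in primed cells, and were lost in 6 and 3 of 22 alternatives.

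The same step can be compared in separate libraries, since OHT against untreated shares none with OHT_IACS against IACS, and IACS against untreated none with OHT_IACS against OHT. For OHT, 28 of 34 members (82.4%) had the same sign in both, beside 76.6% of all genes tested. Of the members, 8 (23.5%) were called in both, beside 19.6% of all genes, namely Gusb upwards and Ctsb, Gaa, Man2b1, Manba, Arsb, Lipa and Scarb2 downwards. For IACS-010759, 25 members (73.5%) had the same sign, beside 69.9%, and 6 (17.6%) were called in both, beside 9.38% of all genes, namely Glb1, Idua, Man2b1, Mcoln1 and Grn upwards and Lipa downwards. Pearson's r across the 34 genes was 0.89 for OHT and 0.77 for IACS-010759, beside 0.7 and 0.52 over all genes tested. These correlations are across genes, which are not independent replicates. In 5 members (Ctsb, Gaa, Man2b1, Arsb and Scarb2) a fall with OHT stood beside a rise with IACS-010759 in primed cells, 2 comparisons that share the OHT libraries. Of these rises, that of Ctsb held in every alternative, and those of Gaa, Man2b1, Scarb2 and Arsb were lost in 3, 7, 7 and 14. The OHT libraries enter the 2 comparisons with opposite sign. The share of all genes tested with this pattern was not worked out, so the count is not read as particular to the set.

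**Figure D4:**
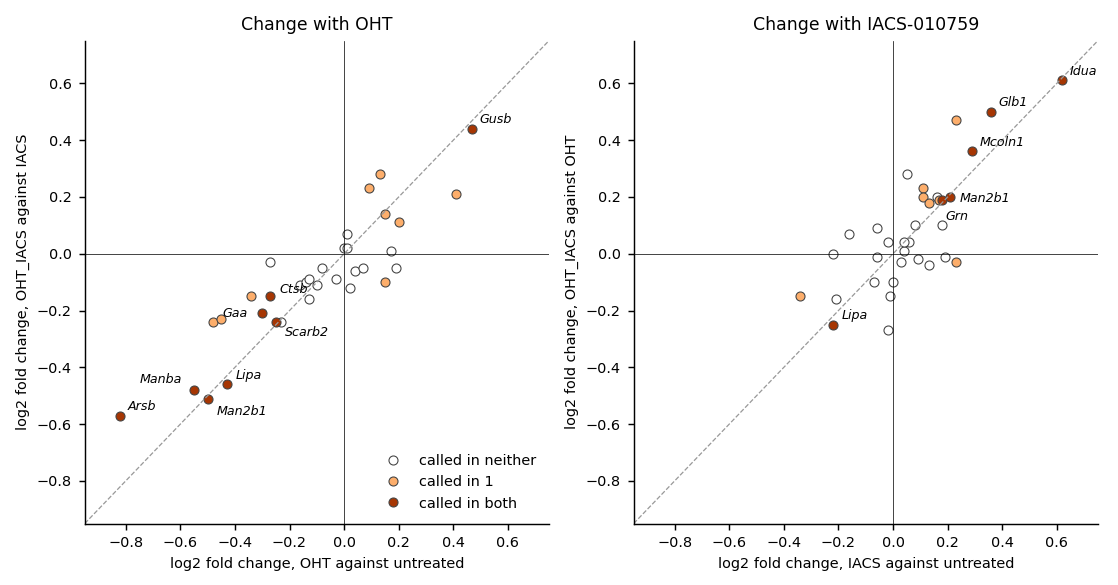
Log2 fold changes of 34 lysosomal genes, with OHT in otherwise untreated cells against OHT under IACS-010759 (left) and with IACS-010759 in nonprimed against primed cells (right); each point is a gene, the dashed line marks equal change, and genes called in both are named. Gusb stands alone at the upper right for OHT, opposite 7 genes that fell in both.

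The median change of the members with TCACGTG in the promoter window was above that of the members without it in all 4 comparisons, a difference that was not tested. With OHT, 1 of the 10 tested members that held it rose and 2 fell (median 0.05), beside 3 rises and 7 falls among 21 without it (median -0.134). With IACS-010759 in nonprimed cells, 2 of 10 rose and none fell (median 0.07), beside 4 rises and 2 falls of 21 (median 0.04). In primed cells it was 3 rises and no fall (median 0.097), beside 6 rises and 1 fall (median 0.038). The shares that rose with IACS-010759 thus differed little between members with and without the motif. Under IACS-010759, OHT was followed by 2 rises and 1 fall (median 0.015), beside 1 rise and 5 falls (median -0.107). Glb1 and Mcoln1, whose stretches are printed above, rose with IACS-010759 in both comparisons, and Arsa and Gaa, printed with them, fell with OHT. The other tested members with TCACGTG were not called with IACS-010759 in nonprimed cells. Among members without the motif in this window were Gusb, Man2b1, Manba, Arsb, Lipa and Idua. Of all genes tested, 8.15% rose and 7.74% fell with IACS-010759 in nonprimed cells, and 11.9% and 11.8% in primed cells. With OHT 18.2% of all genes rose and 18.2% fell, and in OHT_IACS against IACS 12.3% and 14.2%. Their medians were 0.013 with OHT, 0.004 and -0.014 with IACS-010759 in nonprimed and primed cells, and -0.003 in OHT_IACS against IACS. Whether other genes with the motif differed in the same way was not examined.

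The transcription factors of the TFEB family themselves were not called. Tfeb was at 3.08 ± 0.633 RPKM in untreated cells, 2.96 ± 0.617 with OHT, 2.5 ± 0.19 with IACS and 2.88 ± 0.173 with OHT_IACS. Tfe3 lay between 3.69 and 4.71 RPKM in all 12 libraries. Mitf reached 0.646 RPKM and Tfec 0.0374 at most, both under the limit for testing. RNA levels do not show the localisation of these factors, which is their main mode of control. For this family and the nutrient-sensing complex at the lysosome, 15 genes were tested. With OHT, 2 rose and 3 fell (13.3% and 20%), beside 18.2% and 18.2% of all genes. With IACS-010759 in nonprimed cells none was called (limma, 4 at an unadjusted p under 0.05), beside 8.15% and 7.74%. In primed cells 1 rose and 1 fell (6.67% each), beside 11.9% and 11.8%. In OHT_IACS against IACS 1 rose and 2 fell (6.67% and 13.3%), beside 12.3% and 14.2%. The largest change was Rragb, a Rag GTPase gene, at 5.93 ± 0.167 RPKM in untreated cells and 9.89 ± 0.463 with OHT (0.73, limma adjusted p = 1.7e-06), and again 0.76 under IACS-010759. The Ragulator gene Lamtor2 fell by 0.33 and 0.38 in the same comparisons, the first call being lost with the library total as covariate (adjusted p = 0.14 in limma).

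The V-ATPase acidifies the lysosome. Of 17 subunit genes tested, 4 rose and 2 fell with OHT, 2 rose and 1 fell with IACS-010759, 1 rose and 4 fell with it in primed cells, and none rose and 1 fell in OHT_IACS against IACS. As shares, 23.5% rose and 11.8% fell with OHT, beside 18.2% and 18.2% of all genes. With IACS-010759 the shares were 11.8% and 5.88%, beside 8.15% and 7.74%. In primed cells they were 5.88% and 23.5%, beside 11.9% and 11.8%. In OHT_IACS against IACS they were 0% and 5.88%, beside 12.3% and 14.2%. The a subunits, which direct the pump to its membrane, moved apart. Tcirg1, encoding the a3 subunit, was at 13.7 ± 0.727 RPKM in untreated cells, 10.6 ± 0.304 with OHT, 10.1 ± 0.715 with IACS and 8.88 ± 0.126 with OHT_IACS, and fell in all 4 comparisons (-0.37, -0.44, -0.25 and -0.18 for OHT, IACS-010759, IACS-010759 in primed cells and OHT under IACS-010759), the last call being lost in 8 of 22 alternatives. Atp6v0a1, encoding a1, was at 2.72 ± 0.179, 3.39 ± 0.488, 3.75 ± 0.158 and 4.28 ± 0.0483 RPKM in the same order, and rose with OHT (0.3, limma adjusted p = 0.029) and with IACS-010759 (0.45 in nonprimed and 0.34 in primed cells). The calls with OHT and in primed cells were each lost in 5 of 21 alternatives. Atp6v0a2 fell with OHT (-0.28). In OHT_IACS against IACS, Atp6v0a1 was at 0.19 and Atp6v0a2 at -0.05, and neither was called.

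Delivery by mannose 6-phosphate was tested in 11 genes, of which 2 rose with OHT, none was called with IACS-010759 (limma, 3 at an unadjusted p under 0.05), 1 fell in primed cells and 1 rose in OHT_IACS against IACS. As shares, 18.2% rose and 0% fell with OHT, beside 18.2% and 18.2% of all genes. With IACS-010759 all genes gave 8.15% and 7.74%. In primed cells the shares were 0% and 9.09%, beside 11.9% and 11.8%. In OHT_IACS against IACS they were 9.09% and 0%, beside 12.3% and 14.2%. Gnptab, the phosphotransferase gene that begins the tag, rose with OHT in both comparisons (0.24 and 0.17, the second lost in 3 of 22 alternatives). The receptors differed in level, as was seen once their values were known: the cation-dependent receptor gene M6pr was at 62.9 ± 1.77 RPKM in untreated cells, whereas Igf2r, the cation-independent receptor gene, did not exceed 0.0835 RPKM in any library.

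Among 26 further lysosomal genes tested, 4 rose and 7 fell with OHT, 4 rose and 2 fell with IACS-010759, 3 rose and 2 fell with it in primed cells, and 2 rose and 7 fell in OHT_IACS against IACS. As shares, 15.4% rose and 26.9% fell with OHT, beside 18.2% and 18.2% of all genes. With IACS-010759 the shares were 15.4% and 7.69%, beside 8.15% and 7.74%. In primed cells they were 11.5% and 7.69%, beside 11.9% and 11.8%, without the excess of rises of the members. In OHT_IACS against IACS they were 7.69% and 26.9%, beside 12.3% and 14.2%. Falls with OHT included the fucosidase gene Fuca1 (-0.45), the acid nuclease gene Dnase2a (-0.41) and the acid amidase gene Naaa (-0.38). Under IACS-010759, Dnase2a fell by 0.23 (limma adjusted p = 0.033, lost in 6 of 22 alternatives). Fuca1 was then at -0.01 and Naaa at -0.16, and neither was called. Tmem192, a lysosomal membrane protein gene, rose by 0.41 with OHT and 0.4 with IACS-010759, calls lost in 2 and 8 of 22 alternatives. Both rises share the untreated libraries. Without these libraries Tmem192 was at 0.08 (OHT_IACS against OHT) and 0.09 (OHT_IACS against IACS), and neither was called. The GM2 activator gene Gm2a rose by 1.04 with IACS-010759 (limma adjusted p = 0.027), from 0.736 ± 0.281 to 1.6 ± 0.522 RPKM, on at most 61 reads, and the call was lost in 5 of 21 alternatives. Hgsnat, the acetyltransferase gene of heparan sulfate breakdown, rose by 0.42 (adjusted p = 0.00052), and the cystine exporter gene Ctns fell by 0.58 (lost in 3 of 21 alternatives). These changes were in nonprimed cells. In primed cells Gm2a was at 0.26, Hgsnat at 0.1 and Ctns at -0.17, none of them called. The legumain gene Lgmn rose by 0.21 with OHT and by 0.44 under IACS-010759. With the library total as covariate, the calls with OHT of Tmem192 (adjusted p = 0.085 in limma), Naaa (0.05) and Lgmn (0.05) were lost.

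Autophagy genes, of which 30 were tested, gave 3 rises and 5 falls with OHT, 2 and 3 with IACS-010759, 3 and 3 in primed cells and 1 and 5 in OHT_IACS against IACS. Bnip3, encoding a mitophagy receptor, had the largest changes, from 27.6 to 13.9 RPKM with IACS-010759 (-0.98, limma adjusted p = 1.3e-05) and from 34.6 to 14.0 in primed cells (-1.3, adjusted p = 6e-07). Its relative Bnip3l fell too (-0.39 and -0.46). The cargo receptor gene Sqstm1 rose by 0.26 and 0.17 in the same comparisons. Atg9a, the gene of the lipid scramblase of the growing autophagosome, fell with OHT (-0.46) and with IACS-010759 in nonprimed cells (-0.34). Both falls share the untreated libraries. In OHT_IACS against IACS Atg9a fell by 0.29 (limma adjusted p = 0.018, lost in 3 of 22 alternatives). In primed cells IACS-010759 left it at -0.16, not called. Of the list, 10% rose and 16.7% fell with OHT, beside 18.2% and 18.2% of all genes. With IACS-010759 the shares were 6.67% and 10%, beside 8.15% and 7.74%. In primed cells they were 10% and 10%, beside 11.9% and 11.8%. In OHT_IACS against IACS they were 3.33% and 16.7%, beside 12.3% and 14.2%.

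**Figure D5:**
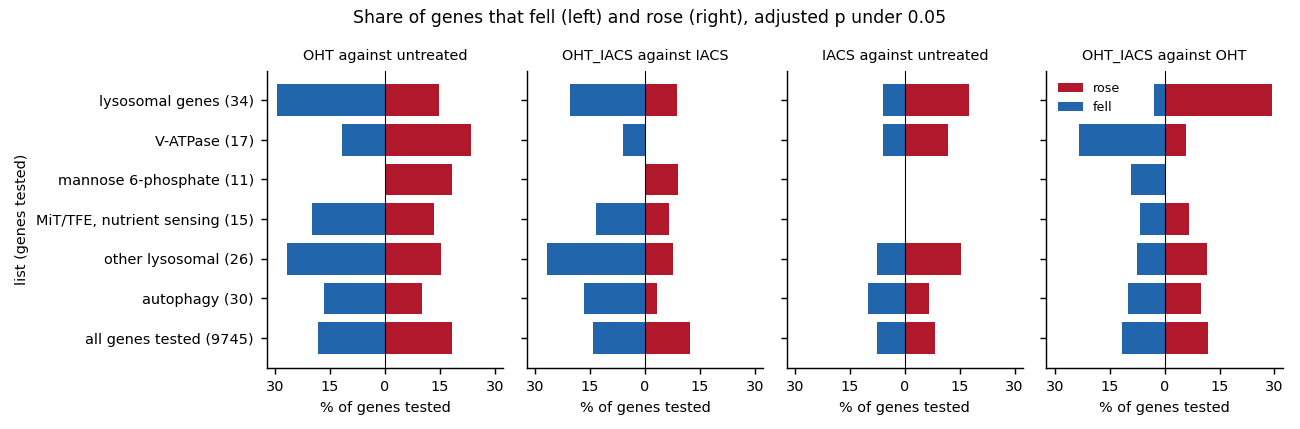
Share of the tested genes of each list that fell (left, blue) and rose (right, red) at an adjusted p under 0.05 in limma, for the lysosomal genes, 5 companion lists and all 9745 genes tested, in 4 comparisons, with the number tested in brackets. Lysosomal genes show 29.4% falls with OHT and 29.4% rises with IACS-010759 in primed cells, whereas the all-gene bars are nearly even in each panel.

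Myeloid genes moved in the same comparisons as the lysosomal falls with OHT. Of the 7 myeloid genes tested, 5 fell (71.4%) and none rose with OHT, and 6 fell (85.7%) in OHT_IACS against IACS. Of all genes, 18.2% and 14.2% fell in these comparisons. With IACS-010759, 1 rose and 1 fell in nonprimed cells (14.3% each), beside 8.15% and 7.74% of all genes. In primed cells 1 rose (14.3%), beside 11.9%. Prtn3, encoding the granule protease proteinase 3, was at 21.2 RPKM in untreated cells and 10.4 with OHT (-1.02), and the lysozyme gene Lyz2 changed from 1.78 to 0.402 (-1.94). The macrophage receptor gene Csf1r did not exceed 0.107 RPKM. Of the tested B-lineage genes, Cd79b fell with OHT in both comparisons (-1.1 and -1.09) and Cd79a was not called. The 3 IL-3 receptor genes gave 1 fall with OHT, none called with IACS-010759 (limma, 0 at an unadjusted p under 0.05), 2 rises in primed cells and 2 rises in OHT_IACS against IACS. The fall is 33.3%, beside 18.2% of all genes. The rises are 66.7% each, beside 11.9% in primed cells and 12.3% in OHT_IACS against IACS. Il3ra was 1 of the 14 genes, among all tested, called in the interaction (0.68, limma adjusted p = 0.045). The part of any of these markers in the changes of the lysosomal genes was not tested.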

How the data were processed

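RNA-seq libraries of FL5.12 cells with MycER, in 4 conditions with 3 replicates each, were grouped by their labels. The authors removed ribosomal RNA, prepared stranded libraries and deposited RPKM values per gene. The submitters' processing notes name TopHat2 2.0.8, SAMtools, featureCounts 1.4.5-p1, DESeq2 and mm9, and the gene annotation is not given in the sources used here. The deposited table also gives log2 fold changes and the p-values, adjusted, from the DESeq2 runs of the authors, and these columns were not used. Every per-library column was used.

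RPKM were rescaled by the median ratio per library (factors 0.9735 to 1.026), and log2(RPKM + 0.1) was fitted with limma 3.58.1 (R 4.3.3, trended moderated variances) over all 12 libraries, for the 9745 genes that reached 1 RPKM in 3 libraries or more. The 5 comparisons set OHT and IACS each against untreated, OHT_IACS against each of OHT and IACS, and tested the interaction. All were two-sided, adjusted by Benjamini-Hochberg within a comparison, with a threshold of 0.05. Whole reads were recovered from the RPKM steps for 15451 of 15451 genes above 0 (tolerance 0.0001 of a read), with library totals of 10376530 to 14550158. Reads of 6220 genes were 0 everywhere. The limit of 3 reads for a count of 0 covers counting error only. Between replicates of a group, the chi-square per gene over genes under 0.1 reads per base ran from 1.08 to 1.88, so that all pairs differed by more than sampling noise and none was counted as a duplicate. The labels do not say whether replicates came from separate cultures, and if they did not, p-values cover technical spread only.

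The members and lists were chosen with earlier results of these data known. Values per library are given, in each comparison, for the 4 called members with the largest rise and the 4 with the largest fall, and for Ctsd, Lamp1, Npc1, Mcoln1, Cd63 and Grn. Smpd1 was added after its values were seen. Other members are named within their role. In the 5 companion lists (TFEB family and nutrient sensing, V-ATPase, mannose 6-phosphate, other lysosomal genes, autophagy) up to 3 genes per direction and comparison were named among the largest called changes, with the 4 factors of the TFEB family, and M6pr and Igf2r were named after their values were seen. The B-lineage, myeloid and IL-3 receptor lists served as markers. One B-lineage marker is not reported here. Gene positions are from GENCODE vM21 and promoters from RefSeq, both on GRCm38, matched by symbol. The strand of the promoter table was checked on 38 of 38 windows of the members against GENCODE transcripts. Stretches were cut to reach at most 24 bases into the GENCODE gene, for which reason none is printed for Ctsd.

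The alternatives were other pseudocounts (0.01 and 1), no filter and an RPKM of at least 5, quantile normalization, RPKM without rescaling, a fit of only the compared groups, a replicate block, and leaving out single libraries. A covariate for log2 library total and limma voom on recovered reads were added after the data had been seen. Other versions were python 3.11.15, numpy 2.4.6, pandas 2.3.3, scipy 1.17.1 and matplotlib 3.10.9.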

Additional observations from a re-analysis of the deposited data

How the results depend on the processing

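Of the 44 calls of lysosomal genes in the 4 comparisons, 24 held in every alternative that gave them a value (21 or 22 of 22) and none reversed. The median change with OHT was -0.072 with RPKM as deposited and with quantile normalization, -0.058 with no filter and -0.112 with voom on recovered reads. The median with IACS-010759 in nonprimed cells was 0.098 as deposited and 0.044 with the library total as covariate, and the interaction median was -0.015 as deposited. Members called in OHT_IACS against OHT numbered 7 as deposited and 4 in a fit of only the compared groups. Fewer of all genes tested were called in both of these settings too, so the lower counts are not read as particular to the set. The cause of these shifts was not tested. With each library left out in turn, calls ran from 12 to 16 for OHT, from 3 to 10 for IACS-010759 (3 without IACS replicate 1 or untreated replicate 1, 5 without IACS replicate 3 or untreated replicate 3), from 6 to 12 for IACS-010759 in primed cells (6 without OHT_IACS replicate 2, 7 without OHT_IACS replicate 1 or 3), from 7 to 14 for OHT under IACS-010759 and from 0 to 1 for the interaction (1 without OHT replicate 2). Medians ran from -0.113 to -0.046, from 0.056 to 0.086, from 0.042 to 0.064, from -0.106 to -0.081 and from -0.007 to 0.046 in the same order. In every fit named in brackets, the count of all genes called moved in the same direction as the count of members. Those shifts in calls are thus not read as particular to the set either. Same-numbered replicates shared only a number (correlations of their deviations from -0.172 to 0.104), and the replicate block gave 16, 11, 10, 11 and 0 calls. Low reads limit Arsb, Idua, Cln3, Ids and the 5 genes not tested.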
